A study of Mus musculus with 6 samples.

Results

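The S100 genes encode small calcium-binding proteins, and the transcripts of 8 of them (S100a1, S100a4, S100a6, S100a8, S100a9, S100a10, S100a11 and S100a13) were followed in mouse macrophages. They were picked by symbol from a deposited table of 29619 RefSeq transcripts with 23282 gene symbols, and for each symbol the transcript with the highest mean signal over the 6 libraries was used. Poly(A) RNA came from peritoneal macrophages drawn after thioglycollate, from female C57BL/6 mice. Cells received a control siRNA (siCtl), an siRNA against Smyd5 or an siRNA against Phf2 for 48 hours, and then vehicle or KLA at 100 ng/ml for 4 hours. KLA, in the labels LPS (Kdo2-LipidA), is the inner, active part of a lipopolysaccharide and an agonist of the receptor TLR4. Smyd5 and Phf2 are a histone methyltransferase and a histone demethylase, and the study asked how they bear on inflammatory gene programs. Each of the 6 combinations of siRNA and agent was a single library, so no combination was replicated, and how many animals or cultures each held is not given in the sources used here.

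S100 proteins carry EF-hand loops, change shape when calcium binds and then dock on target proteins such as annexins, myosin or the cytoskeleton. S100a8 and S100a9 together form calprotectin, which is abundant in neutrophils and monocytes, sequesters metal ions and, once released, is sensed by TLR4 and by the receptor Ager. S100a10 is the partner of annexin A2 and does not need calcium to bind it, S100a11 binds annexin A1, and S100a4 and S100a6 are linked to cell motility and to the cytoskeleton. S100a1 is best known from heart muscle, and S100a13 takes part in the release of proteins that lack a signal peptide.

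The table held 1359270 and 1429509 reads for siCtl with vehicle and with KLA, 921925 and 919338 for siSmyd5, and 577054 and 420149 for siPhf2. In the siPhf2-labelled libraries 66.7% and 71.6% of those reads lay on Rn45s, a ribosomal RNA precursor, against at most 1.2% elsewhere, so 192420 and 119144 reads remained for all other genes. The deposited values gave whole reads in the siCtl and siPhf2 columns only with the tag totals exchanged between these names, within each agent. The targeted genes did not settle the names. Phf2 had 113 and 120 reads in siCtl, 52 and 34 in siSmyd5 and 29 and 8 in siPhf2 (vehicle and KLA), and after scaling it stood at 2.54 times siCtl (95% counting interval 1.63 to 3.85) in the siPhf2-labelled vehicle library and at 1.08 times (0.457 to 2.2) with KLA. Smyd5 had 44, 29, 9, 20, 3 and 0 reads in the same order. It was at 0.33 times siCtl (0.141 to 0.684) in the siSmyd5-labelled vehicle library and at 1.1 times (0.592 to 2.02) in the siSmyd5-labelled KLA library. All arms are therefore named by their labels, and every direction against siCtl, for siSmyd5 as for siPhf2 and under either agent, rests on them. The KLA comparisons within an arm rest on the labels only for the name of the arm.

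All 8 genes lie on mouse chromosome 3 within 3053611 bases (mm9, 90314956 to 93368567). Of the 67 genes of the table in that span, 59 were not among the 8, and 6 of those 59 are other S100 genes. Of the 59, 0 reached the mean of 10 reads that was needed for testing, whereas 7 of the 8 followed genes did. The 8 were chosen with earlier results of these data known, so this difference describes the choice. S100a1 (3, 90314956 to 90318252, minus strand) and S100a13 (3, 90318357 to 90328503, plus strand) start head to head, 105 bases apart. S100a4 (3, 90407692 to 90409967) and S100a6 (3, 90416816 to 90418336) follow on the plus strand, then S100a8 (3, 90472993 to 90473956, plus) and S100a9 (3, 90496555 to 90499613, minus). S100a11 (3, 93324418 to 93330210) and S100a10 (3, 93359039 to 93368567), both on the plus strand, lie 2824805 bases beyond S100a9. All transcripts are short, from 389 bases (S100a8) to 716 bases (S100a6), against a median of 2911 bases over the 7995 tested genes. Of the 9 other S100 genes in the table, 6 also lie on chromosome 3, within that span. Among those 9, 6 had 0 reads in every library and S100a16 had the most, at 2.

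Upstream sequences were matched in RefSeq (GRCm38.p6) for 7 of the 8 genes, and the 250 bases before the start were searched on both strands for the TATA box TATAAA, the box known as CCAAT, the GC box GGGCGG, the AP-1 element TGANTCA and the NF-kB element (GGGA and CC around any 4 bases). They are shown for S100a4, S100a8 and S100a6, which moved together in the siSmyd5-labelled libraries, for S100a11, which fell with KLA, and, on the plus strand, for the 104 bases shared by the divergent S100a1 and S100a13. Capitals mark the matches. On GRCm38.p6 these windows are chr3:90603520-90603769 (plus), chr3:90668821-90669070 (plus), chr3:90612644-90612893 (plus), chr3:93520246-93520495 (plus) and chr3:90514331-90514434.
S100a4: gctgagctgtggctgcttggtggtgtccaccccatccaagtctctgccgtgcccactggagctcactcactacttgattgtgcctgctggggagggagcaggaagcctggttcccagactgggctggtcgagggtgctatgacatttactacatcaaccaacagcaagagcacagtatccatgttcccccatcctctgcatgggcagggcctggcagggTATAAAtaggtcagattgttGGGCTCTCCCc
S100a8: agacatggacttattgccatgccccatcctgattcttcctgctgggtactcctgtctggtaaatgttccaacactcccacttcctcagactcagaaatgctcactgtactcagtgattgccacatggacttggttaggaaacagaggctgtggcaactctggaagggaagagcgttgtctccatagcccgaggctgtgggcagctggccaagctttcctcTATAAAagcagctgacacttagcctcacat
S100a6: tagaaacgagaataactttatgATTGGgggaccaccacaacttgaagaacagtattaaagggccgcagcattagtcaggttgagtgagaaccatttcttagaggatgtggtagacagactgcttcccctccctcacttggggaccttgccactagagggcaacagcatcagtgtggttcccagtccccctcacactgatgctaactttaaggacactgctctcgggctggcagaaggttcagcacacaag
S100a11: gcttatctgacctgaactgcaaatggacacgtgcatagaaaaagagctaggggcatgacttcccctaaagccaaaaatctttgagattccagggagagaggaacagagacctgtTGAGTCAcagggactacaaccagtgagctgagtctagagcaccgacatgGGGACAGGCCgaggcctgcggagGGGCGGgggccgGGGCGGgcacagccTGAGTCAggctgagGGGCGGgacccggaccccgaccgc
S100a1 to S100a13: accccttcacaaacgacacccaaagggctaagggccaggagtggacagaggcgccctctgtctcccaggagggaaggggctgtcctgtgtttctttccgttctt
TATAAA was found 31 to 26 bases before the start of S100a4 and 30 to 25 before that of S100a8, and 12.4% of the 32851 RefSeq windows of this length hold it. S100a11 held no TATAAA but 3 GGGCGG, at 64, 52 and 24 bases before the start, a motif present in 32.7% of windows. It also held 2 TGANTCA, at 136 and 38 bases (6.75% of windows), and 1 NF-kB element at 87 bases (17.6%). S100a4 had 1 NF-kB element ending 2 bases before its start, and S100a6 had 1 CCAAT, 228 bases before its start (33.8% of windows). The 104 bases between S100a1 and S100a13 held no match. These are letter matches in sequence and carry no measurement of binding.

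Levels were compared between genes as CPM (read counts over the library size) scaled by TMM factors, per kilobase of transcript. The column headers name coding sequence, so the true counted length may be shorter. S100a6 led in the siCtl vehicle library with 405 reads (232 CPM per kilobase, counting interval 210 to 256). Per kilobase of transcript, S100a10 with 342 reads (217, 194 to 241) and S100a11 with 263 reads (215, 190 to 243) did not differ from it beyond counting error. S100a1 followed with 201 reads (135, 117 to 155). A wide gap separated these 4 genes from S100a4 with 37 reads (30.6), S100a13 with 52 reads (30.0) and S100a8 with 25 reads (26.4), whose intervals overlapped. The first 4 each stood above at least 97.6% of the tested genes per kilobase in that library, and S100a4, S100a13 and S100a8 above 82.6%, 82.3% and 79.2%. S100a9 had 0 reads there. In siCtl with KLA the leading level was that of S100a10 (215), level with S100a6 (214), before S100a11 (160) and S100a1 (117). S100a6 led in siSmyd5 beyond counting error, at 521 (478 to 565) with vehicle and 386 (349 to 426) with KLA, followed by S100a10 at 280 (248 to 315) and 293 (259 to 331). In the siPhf2-labelled libraries S100a1 led instead, at 578 (463 to 713) with vehicle and 189 (108 to 306) with KLA, and with KLA its interval overlapped that of S100a6 (90.6, 41.4 to 172). With coding length in place of transcript length, the order of the 8 genes was the same in 4 of the 6 libraries, siCtl with vehicle included. The distances changed: S100a6, S100a10 and S100a11 were then at 615, 477 and 363 in siCtl with vehicle, and S100a6 and S100a10 at 567 and 472 with KLA. No intervals were computed per coding length, so the closeness of these genes in siCtl holds per transcript length only.

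**Figure D1:**
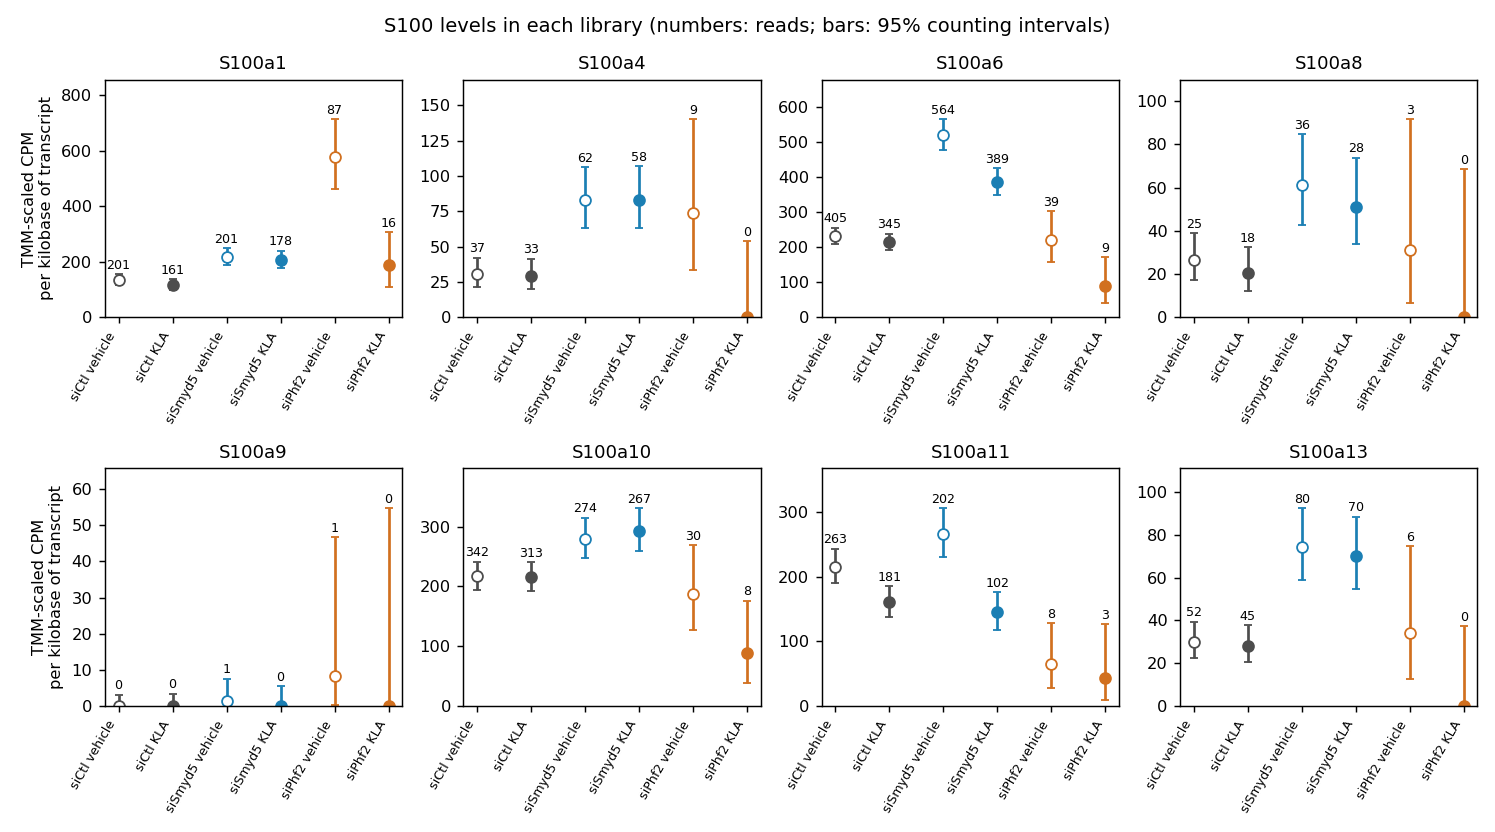
Level of each S100 gene in the 6 libraries, as TMM-scaled CPM per kilobase of transcript (vertical axis, linear, each panel with its own range). Points are single libraries (open: vehicle, filled: KLA), bars are 95% counting intervals and the numbers are reads: S100a6 runs from 9 to 564 reads, S100a9 has at most 1, and S100a1 is highest in the siPhf2-labelled vehicle library.

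Of the calprotectin pair, S100a8 had nearly all of the reads. S100a8 had 25, 18, 36, 28, 3 and 0 reads, with vehicle before KLA within each arm and the arms running from siCtl over siSmyd5 to siPhf2, the order kept below. S100a9 had 0, 0, 1, 0, 1 and 0, although its transcript is longer (485 against 389 bases). In the siSmyd5 vehicle library this was 36 reads to 1 (counting interval of the ratio 6.06 to 1460). In siCtl with vehicle, 25 reads to 0 put the lower limit of the ratio at 6.29. Neither sequence shares a run of 25 bases with another annotated transcript.
The part of neutrophil markers in the S100a8 level was not tested. Of the 18 in the table, 12 had at most 3 reads in any library and 5 were tested, and the whole list summed to 164 and 162 TMM-scaled CPM in siCtl, 172 and 136 in siSmyd5 and 102 and 267 in siPhf2. Ctsg, Fcnb, Stfa2l1 and Itgb2l had 0 reads in all 6 libraries, Ngp, Camp, Elane and Retnlg had at most 1, and Ltf, Mpo and Prtn3 at most 3. Mmp8, a neutrophil collagenase, had 206, 202, 137, 96, 3 and 0 reads, and Csf3r, the receptor for granulocyte colony-stimulating factor, had 79, 65, 71, 33, 17 and 29. The iron carrier Lcn2 (37, 33, 14, 17, 1 and 4 reads), the gelatinase Mmp9 (32, 40, 13, 17, 1 and 1) and Padi4, an enzyme that citrullinates histones (29, 22, 21, 23, 2 and 3), had about as many reads as S100a8 in siCtl or more. Defining macrophage markers were abundant, among them Cd68 (3202, 2589, 2454, 1489, 400 and 281 reads), Lyz2 (2566, 2670, 2500, 2424, 357 and 138) and Emr1, which encodes F4/80 (689, 808, 425, 451, 59 and 58), while Cd163 had 0. Fibroblast genes were also present, among them Col1a1 with 604, 620, 276, 287, 46 and 20 reads. The list of 12 fibroblast and mesothelial markers, 5 of them tested, summed to 918 and 950 CPM in siCtl, 685 and 758 in siSmyd5 and 516 and 382 in siPhf2, and its part in the results below was not tested. Monocyte markers (8, of which 3 tested) summed to 982 and 1150, 517 and 650, and 1990 and 2010 CPM, nearly all from Fn1 and Vcan, with Ly6c2 at most 7 reads and Ccr2 at most 6. Fn1 (8266 bases) and Vcan (12417 bases) are long. With each library's trend on length taken out, as below, the log2 fold of Fn1 against siCtl went from -0.91 to -0.43 in siSmyd5. In siPhf2 it went from 0.89 to 0.41, and that of Vcan from 1.51 to 0.61. The part of monocytes in these sums was not tested. Lymphocyte markers summed to at most 17.2 CPM and mast cell and eosinophil markers to at most 31.5. In bulk RNA, fewer cells of a type and less RNA per cell cannot be told apart.

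The first question was how the S100 genes stood when Smyd5 was targeted. S100a4, S100a13, S100a8 and S100a6 rose in the siSmyd5-labelled libraries, and S100a1, S100a10 and S100a11 did not pass the test. S100a4, the motility-linked member, had 37 and 33 reads in siCtl and 62 and 58 in siSmyd5, vehicle and KLA. S100a13 went from 52 and 45 reads to 80 and 70, and S100a8 from 25 and 18 to 36 and 28. The siSmyd5 libraries were the smaller ones, so each of these genes had more reads in each siSmyd5 library than in either siCtl library although fewer reads were sequenced. S100a6 had 405 and 345 reads in siCtl against 564 and 389 in siSmyd5, and there the siSmyd5 KLA count lay below the siCtl vehicle count.
Averaged over both agents, the log2 fold against siCtl was 1.46 (SE 0.31, adjusted p = 0.0125) for S100a4 and 1.31 (SE 0.27, 0.00971) for S100a13, by edgeR's quasi-likelihood test with Benjamini-Hochberg adjustment over all 7995 genes. S100a8 gave 1.25 (SE 0.34, 0.0378) and S100a6 gave 1.0 (SE 0.23, 0.0187) in the same fit. These were 4 of the 7 tested S100 genes, with 0 called lower, where 2.74% of all tested genes rose and 3.65% fell. S100a1 stood at 0.76 (SE 0.25, 0.0748), S100a10, the annexin A2 partner, at 0.41 (SE 0.22, 0.267) and S100a11 at 0.10 (SE 0.20, 0.807).

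Transcript length moved with this comparison. Of the 305 tested genes of 300 to 800 bases, the range that holds all S100 transcripts, 20.7% rose and 0% fell, with a median log2 fold of 0.59 and quartiles of 0.34 and 0.87. The 7 S100 genes had a median of 1.0, against 0.00 over all tested genes. S100a4, S100a13, S100a8 and S100a6 lay above that upper quartile, S100a1 and S100a10 within the quartiles, and S100a11 below the lower one. With each library's trend on length taken out as an offset in the same test, none of the 7 passed, where 0.338% of all genes still rose and 0.125% fell (1257 genes, 4 of the 7 included, at an unadjusted p under 0.05). The log2 folds were then 0.81 for S100a4 (adjusted p = 0.202), 0.80 for S100a13 (0.148), 0.50 for S100a6 (0.281) and 0.49 for S100a8 (0.487). S100a1 was at 0.19, and S100a10 and S100a11 were below siCtl, at -0.14 and -0.55.
The calls were also lost without any 1 of the siCtl or siSmyd5 libraries (0 of 7), where 1, 1, 5 and 2 of all 7995 genes rose without siCtl vehicle, siCtl KLA, siSmyd5 vehicle and siSmyd5 KLA. The log2 folds then ran from 1.13 to 1.74 for S100a4, from 1.11 to 1.48 for S100a13, from 1.1 to 1.42 for S100a8 and from 0.71 to 1.31 for S100a6. Leaving out the siPhf2 arm gave 6 of 7, S100a1 (0.72, adjusted p = 4.18e-05) and S100a10 (0.38, 0.0105) among them, where 13.3% of all genes rose and 14.2% fell. DESeq2, limma-voom and limma on log2 values called 0 of the 7. Of all 7995 genes, 3, 9 and 0 rose and 2, 8 and 0 fell with these tools. An unadjusted p under 0.05 was seen for 4, 5 and 1 of the 7, against 505, 1590 and 490 of all genes (445 for limma with 1 CPM added). The DESeq2 folds were 1.48 for S100a4, 1.32 for S100a13 and 1.01 for S100a6.
With the names siCtl and siPhf2 exchanged, S100a6 (1.48, adjusted p = 0.0016) and S100a13 (1.74, 0.0392) still rose. S100a4 (0.84, 0.314) and S100a8 (1.53, 0.185) did not pass, S100a10 (0.96, 0.0322) and S100a11 (1.91, 0.00242) rose, and S100a1 fell (-0.89, 0.0355). In that fit 11.8% of all genes rose and 13.6% fell.

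**Figure D2:**
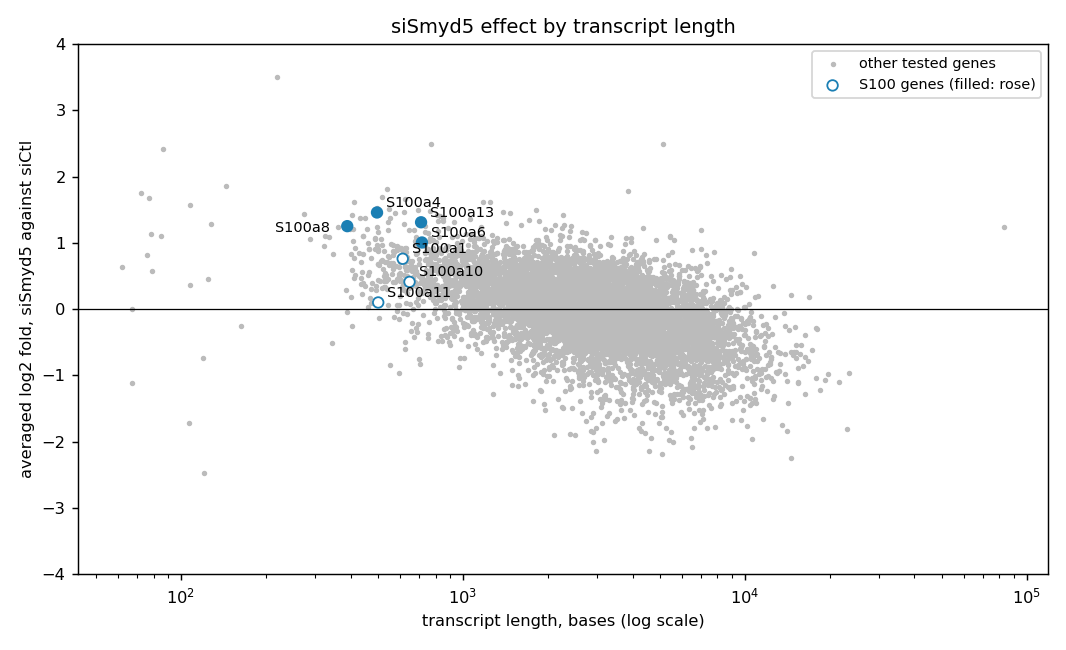
Averaged log2 fold of siSmyd5 against siCtl (vertical axis) by transcript length (horizontal, log scale) for the 7995 tested genes, each point a gene. Short transcripts sit mostly above 0, and the 4 filled S100 points (log2 fold 1.0 to 1.46) lie in the upper part of their length range, with S100a11 at 0.10 in the lower part.

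Under each agent separately the ratios were close. S100a4 stood at 2.70 times siCtl with vehicle (1.77 to 4.17) and 2.81 times with KLA (1.80 to 4.45). S100a13 was at 2.48 (1.73 to 3.58) and 2.49 (1.69 to 3.71), and S100a8 at 2.32 (1.35 to 4.03) and 2.49 (1.33 to 4.78). S100a6 was 2.24 times siCtl (1.97 to 2.56) with vehicle and 1.81 times (1.56 to 2.09) with KLA. With a call at 2-fold (2 reads added, interval excluding 1), 4 of 7 were higher with vehicle, where 2.6% of all genes and 16.7% of those of 300 to 800 bases were, and 5.42% of all genes were lower. With KLA 3 of 7 were higher, against 1.83% of all genes and 14.8% of that length class (3.76% of all genes were lower), and 0 were lower under either agent. S100a11 was the exception in direction, at 1.24 times (1.02 to 1.49) with vehicle and 0.902 times (0.701 to 1.16) with KLA. Once the trend on length was subtracted, no S100 gene was called higher, where 1.86% (vehicle) and 1.11% (KLA) of all genes were. These single ratios have no replicate check.

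**Figure D3:**
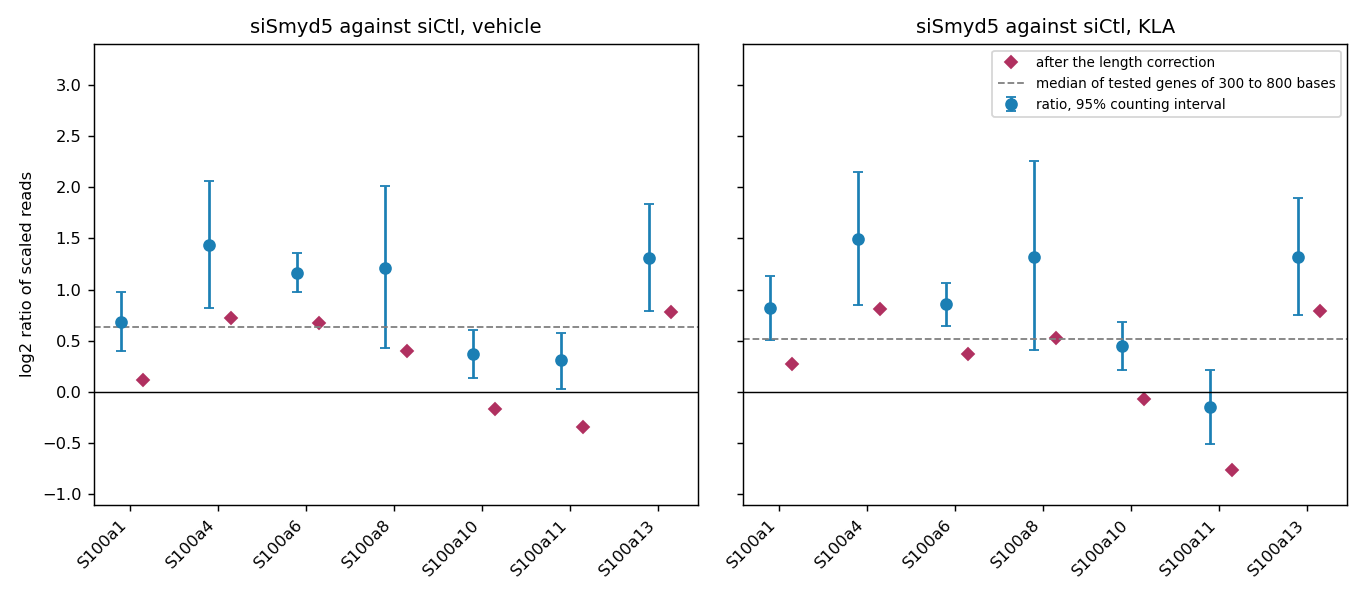
Log2 ratio of scaled reads, siSmyd5 over siCtl, for the 7 tested S100 genes under vehicle (left) and KLA (right). Circles with bars are ratios with 95% counting intervals, diamonds are values after the length trend is subtracted, and the dashed line is the median of the 305 tested genes of 300 to 800 bases (0.64 and 0.52). S100a4, S100a13, S100a8, S100a6 and, by little with vehicle, S100a1 lie above it under both agents, and S100a10 and S100a11 lie below it.

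Members of nearly equal length were set against each other inside each library, which needs no scaling between libraries. Each pair was chosen after the data were seen and joins a gene that rose in siSmyd5 with one that did not pass. Intervals that lie apart therefore restate that choice and are no further support for the calls. S100a4 (496 bases) had 0.141 reads for each S100a11 read (501 bases) in siCtl with vehicle (0.0969 to 0.199) and 0.182 with KLA (0.122 to 0.265). In siSmyd5 that ratio was 0.307 (0.227 to 0.410) and 0.569 (0.405 to 0.792), and under each agent the siSmyd5 and siCtl intervals were apart. S100a6 (716 bases) against S100a10 (647 bases) gave 1.18 (1.02 to 1.37) and 1.10 (0.943 to 1.29) in siCtl, against 2.06 (1.78 to 2.39) and 1.46 (1.24 to 1.71) in siSmyd5. The intervals of S100a6 against S100a10 were apart with vehicle and overlapped with KLA.
As a share of all reads on the 8 genes, S100a6 made up 30.6% (exact binomial interval 28.1 to 33.1) in siCtl with vehicle and 39.7% (37.2 to 42.3) in siSmyd5 with vehicle. S100a10 went the other way, from 25.8% (23.5 to 28.3) to 19.3% (17.3 to 21.4). Of S100a11's 25-base runs 50.7% also occur in 8 other annotated genes, with the largest shares in processed pseudogenes, and 58.6% of those of S100a4 occur in Gm42674, which overlaps it on the same strand. How reads with several matches were handled is not given in the sources used here, so the levels of S100a4 and S100a11 are uncertain to that extent. S100a10 shares 2.72% of its runs and the other 5 genes share none.

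**Figure D4:**
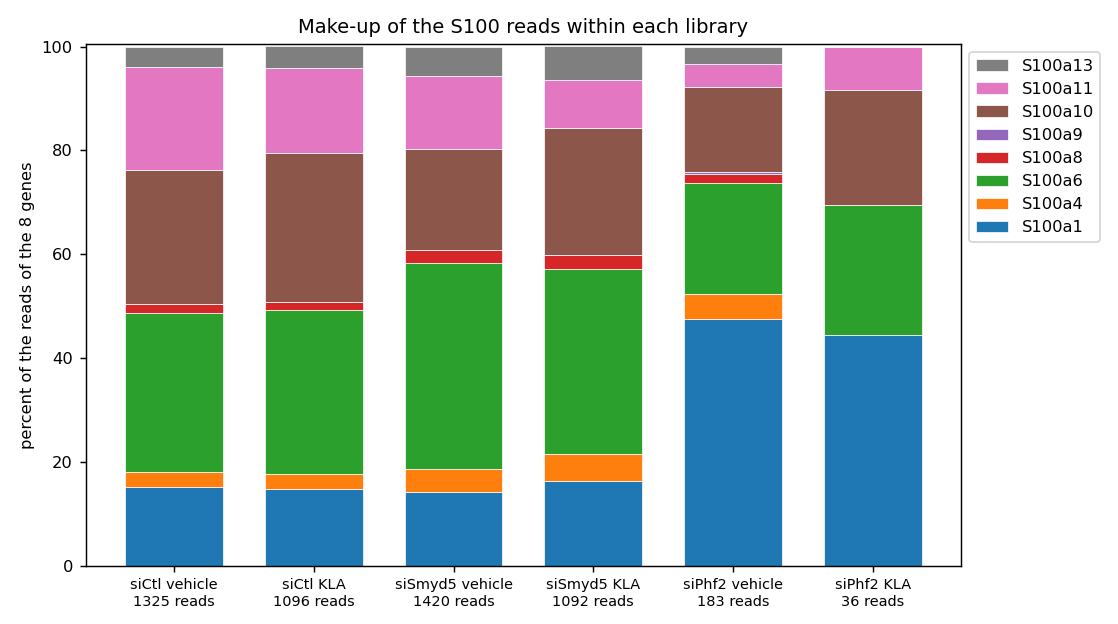
Make-up of the reads on the 8 S100 genes within each library, in percent (bars from 0, with the read totals below each bar). S100a1 makes up 14.2% to 16.3% in the siCtl and siSmyd5 libraries and 47.5% and 44.4% in the siPhf2-labelled ones, which rest on 183 and 36 reads.

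KLA was compared with vehicle to ask whether the S100 genes take part in the response to a TLR4 agonist. S100a11 fell, and the other 6 tested genes did not pass the test. S100a11 had 263 reads with vehicle and 181 with KLA in siCtl, 202 and 102 in siSmyd5, and 8 and 3 in siPhf2. It was lower with KLA in all 3 arms, at 0.744 times vehicle (0.613 to 0.903), 0.543 times (0.424 to 0.692) and 0.665 times (0.114 to 2.77). The ratios of S100a1, S100a6, S100a8 and S100a13 were also below 1 in all 3 arms. For S100a11 the siCtl and siSmyd5 intervals excluded 1.
Averaged over the arms the log2 fold of S100a11 was -0.64 (SE 0.19, adjusted p = 0.0301, edgeR's quasi-likelihood test). None of the 7 rose, where 11.2% of all tested genes rose and 4.6% fell. DESeq2 called 0 of 7, where 6.2% of all genes rose and 1.41% fell. With DESeq2 0 of 7 had an unadjusted p under 0.05, against 1189 of 7995 genes. By edgeR, S100a11 alone had an unadjusted p under 0.05, against 2123 of all genes. The other 6 lay between -0.10 (S100a10, SE 0.21, 0.826) and -0.41 (S100a6, SE 0.21, 0.239), with a median over the 7 of -0.36 against -0.03 for all genes and -0.11 for those of 300 to 800 bases. Without the siPhf2 arm S100a11 was at -0.65 (adjusted p = 0.000157) and S100a6 passed too, at -0.30 (0.0295), where 16.1% of all genes rose and 10.3% fell. The S100a11 call was lost without any 1 of the 4 siCtl and siSmyd5 libraries (log2 fold -0.45 to -0.83, adjusted p 0.511 to 0.973). In those 4 fits only 0.7% to 0.888% of all genes fell, so the loss is not particular to S100a11. It was also lost with the length offset (-0.50, 0.0955), with which 10.2% of all genes rose and 4.77% fell.

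The neighbouring S100a10 (647 bases) was set against S100a11 (501 bases) within each library. This pair joins the gene that passed with one that did not, so it is no further support for the call. S100a11 to S100a10 reads stood at 0.769 (0.652 to 0.906) with vehicle and 0.578 (0.479 to 0.697) with KLA in siCtl. In siSmyd5 they stood at 0.737 (0.612 to 0.887) and 0.382 (0.301 to 0.482), and the vehicle and KLA intervals were apart there but overlapped in siCtl. S100a10 itself had 342 and 313 reads in siCtl (0.990 times vehicle, 0.846 to 1.16) and 274 and 267 in siSmyd5 (1.05 times, 0.882 to 1.24). S100a8, the member most tied to inflammation, did not pass either, at 0.779 times vehicle (0.400 to 1.49) in siCtl and 0.836 times (0.491 to 1.41) in siSmyd5.
In the siCtl arm 0 of 7 genes passed the 2-fold call (7.18% of all genes were higher and 2.68% lower), and in the siSmyd5 arm 0 of 7 (8.74% and 3.5%). In the siPhf2-labelled arm 3 of 7 were lower and 0 higher, where 6.65% of all genes were lower and 8.31% higher. There S100a1 went from 87 to 16 reads, at 0.326 times vehicle (0.179 to 0.560), and S100a6 from 39 to 9, at 0.409 times (0.174 to 0.859). S100a4 went from 9 reads to 0, with an upper limit of the ratio at 0.899. Whether KLA acted differently between the arms was not tested, since no arm has a second library per agent.

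**Figure D5:**
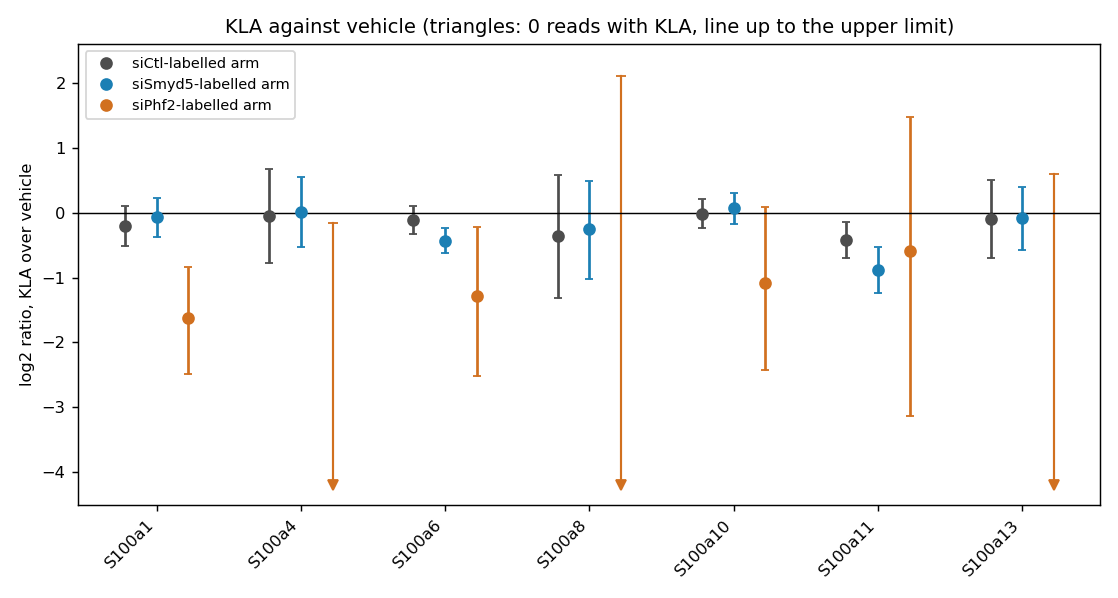
Log2 ratio of KLA over vehicle for the 7 tested S100 genes in each siRNA arm, with 95% counting intervals; a triangle marks 0 reads with KLA and its line ends at the upper limit. S100a11 lies below 0 in all 3 arms, as do S100a1 and S100a6, and S100a8 and S100a13 with a triangle in the siPhf2-labelled arm. That arm has the widest intervals, from 0 to 16 reads per gene with KLA.

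In the siPhf2-labelled libraries S100a1 rose against siCtl and S100a11 fell, and the other 5 tested genes did not pass the test. S100a1 had 87 reads among the 192420 that were not on Rn45s in the vehicle library and 16 among 119144 with KLA, against 201 and 161 in siCtl. Its averaged log2 fold was 1.65 (SE 0.30, adjusted p = 0.00124, edgeR's quasi-likelihood test). S100a11, with 8 and 3 reads against 263 and 181, was at -1.81 (SE 0.41, 0.00652). Over all tested genes 8.12% rose and 4.52% fell. This comparison shares its siCtl libraries with that of siSmyd5.
With the length offset S100a1 was at 2.53 (adjusted p = 7.17e-05) and S100a11 at -0.98 (0.177), where 7.9% of all genes rose and 2.14% fell. The S100a1 call rested on the vehicle library, without which it was 0.65 (0.285), and it was also lost without siCtl vehicle (1.29, 0.248). S100a11 lost its call without siPhf2 vehicle (-1.78, 0.0762), siCtl vehicle (-2.06, 0.0745) or siCtl KLA (-1.65, 0.144).
The direction for S100a1 depended on the scaling: with the library total, Rn45s included, it was -0.49, a scaling that moved the median of all genes from -0.13 to -2.26 and called 91.9% of them lower. By edgeR, S100a1 was at 1.18 (adjusted p = 0.0133) with the total without Rn45s and at 1.74 (0.000583) with DESeq2 size factors. With these 2 scalings 4.24% and 9.74% of all genes rose.

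Taken singly, S100a1 stood at 4.29 times siCtl (3.30 to 5.54) with vehicle and 1.62 times (0.902 to 2.70) with KLA. S100a4 passed the 2-fold call with vehicle, on 9 reads, at 2.41 times (1.02 to 5.08). S100a11 was lower, at 0.301 times (0.129 to 0.603) with vehicle and 0.269 times (0.055 to 0.800) with KLA. This made 2 of 7 higher and 1 lower with vehicle, where 10.8% and 8.87% of all genes were. With KLA 0 were higher and 3 lower (7.85% and 7.24% of all genes), S100a6 at 0.424 times (0.192 to 0.814) and S100a10 at 0.415 times (0.178 to 0.829) joining S100a11. S100a4, S100a8 and S100a13 had 0 reads in the siPhf2-labelled KLA library against 33, 18 and 45 in siCtl, differences that were not detectable at this depth (upper limits of the ratio 1.92, 3.70 and 1.39).
Within the libraries, where scaling plays no part, S100a1 made up 15.2% of the S100 reads in siCtl with vehicle (13.3 to 17.2) and 14.7% with KLA (12.6 to 16.9). In the siPhf2-labelled libraries it made up 47.5% (40.1 to 55.0) and 44.4% (27.9 to 61.9). A share also depends on the other genes, and that of S100a11 was 19.8% in siCtl and 4.37% in siPhf2 with vehicle. S100a1 was chosen here because it was called, so its share and its ratio to S100a13 are no further support for the call. S100a13, the divergent neighbour of S100a1, had few reads in the siPhf2-labelled libraries. S100a1 to S100a13 reads were 3.87 (2.84 to 5.35) and 3.58 (2.56 to 5.10) in siCtl, 2.54 (1.92 to 3.4) in siSmyd5 with KLA, where vehicle gave 201 reads to 80, and 14.5 (6.4 to 40.6) in siPhf2 with vehicle. With KLA the siPhf2-labelled library had 16 reads to 0, with a lower limit of 3.86. The siCtl and siPhf2 intervals were apart with vehicle and met with KLA.

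Across the 6 libraries the log2 levels of the tested S100 genes, other than S100a1 and S100a11, correlated at 0.87 (S100a4 with S100a10) or more. These levels carry 15.2 CPM added, more than S100a8 itself had in siCtl (10.3 CPM with vehicle, 7.99 with KLA). S100a4, S100a8 and S100a13 had 0 reads in the siPhf2-labelled KLA library, so their correlations rest partly on values at the floor. As a description over libraries that share arms and differ widely in depth, Pearson's r was 0.992 between S100a8 and S100a13, 0.987 between S100a6 and S100a8 and 0.983 between S100a6 and S100a13. S100a1 correlated weakly with the others, from -0.469 (S100a11) to 0.448 (S100a4). S100a11 ran from 0.491 (S100a4) to 0.811 (S100a10) with the remaining 5.
Among non-members with a mean of at least 50 reads, the profile nearest to S100a10 was that of Rps15 (r = 0.999), a ribosomal protein gene whose copies can share reads, followed by Capns1 (0.998), the small calpain subunit. AF251705 (0.997) and Cwc15 (0.996) were nearest to S100a6, Ndufa3 (0.995) and Rnf146 (0.993) to S100a8, and Apoa1bp (0.996) and Rnf146 (0.996) to S100a13. S100a4 was nearest to Agpat5 (0.993) and Slc35f5 (0.992), S100a11 to Cog6 (0.988) and Tmem120a (0.983), and S100a1 to Tbcd and Pnpla7 (both 0.983).

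The proteins that S100 proteins bind inside the cell were read from a list of 16 genes, of which 15 were tested. With KLA 2 rose and 0 fell, where 11.2% of all tested genes rose and 4.6% fell: Cybb, the catalytic subunit of the phagocyte oxidase that calprotectin assists (log2 fold 1.33, SE 0.19, adjusted p = 4.06e-05, edgeR), and Anxa5, an annexin (0.65, SE 0.21, 0.0417). Their median was 0.09. Anxa2, the partner of S100a10, had 887, 794, 749, 650, 80 and 45 reads, and Anxa1, the partner of S100a11, had 1394, 1251, 1295, 1004, 120 and 13. In siSmyd5, where 2.74% of all genes rose, 1 of the 15 did, Sugt1, which encodes a co-chaperone that S100a6 binds (0.95, SE 0.22, 0.02), and with the length offset it did not pass (0.83, 0.0917). In siPhf2, 3 rose and 0 fell, against 8.12% and 4.52% of all genes: Ahnak, a very large scaffold protein bound by S100a10 with annexin A2 (2.76, SE 0.28, 1.02e-06), Myh9, the myosin heavy chain bound by S100a4 (1.65, SE 0.23, 5.73e-05), and Cybb (1.21, SE 0.24, 0.00229). With the length offset these 3 still passed (1.27, 1.29 and 1.25, where 7.9% of all genes rose), and Anxa5 (1.36, 0.0149) and Cyba, the other membrane subunit of that oxidase (1.53, 0.00141), rose as well.

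Receptors of released S100 proteins and their signalling genes made a list of 16, of which 14 were tested. With KLA 6 rose and 2 fell, against 11.2% and 4.6% of all tested genes, with a median of 0.61. Cd69, a lectin receptor for calprotectin, rose most (3, 65, 6, 96, 0 and 5 reads, log2 fold 4.29, SE 0.39, adjusted p = 6.86e-08). Cd14, the lipopolysaccharide co-receptor, had 244, 885, 285, 797, 22 and 81 reads (1.97, SE 0.22, 1.11e-06). The urokinase receptor Plaur (1.62, SE 0.21, 7.05e-06), its ligand Plau (1.5, SE 0.21, 2.65e-05), the adaptor Myd88 (1.21, SE 0.23, 0.000571) and Cd33 (0.88, SE 0.25, 0.0195) also rose. Tlr4 itself fell, with 307, 156, 172, 95, 16 and 9 reads (-0.75, SE 0.19, 0.0103), as did the syndecan Sdc1 (-0.68, SE 0.19, 0.0171). Ager, the other main S100 receptor, had 1 read in siSmyd5 with KLA and 0 in the other 5 libraries. In siSmyd5, against 2.74% and 3.65% of all genes, Cd69 rose (1.27, SE 0.31, 0.0244) and Cd33 fell (-0.95, SE 0.28, 0.0482), neither of which passed with the length offset. In siPhf2, Cd36, a scavenger receptor (-1.95, SE 0.24, 1.38e-05), and Plau (-1.43, SE 0.31, 0.00422) fell, and 0 rose, against 4.52% and 8.12% of all genes. With the length offset Cd36 still fell (-1.75, 0.000547) and Plau did not pass (-0.94, 0.0722), while Plaur (1.37, 0.0114) and Cd14 (1.09, 0.0423) rose, where 2.14% of all genes fell and 7.9% rose.

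Other EF-hand proteins gave 4 that rose with KLA and 0 that fell, of 25 tested, with a median of 0.04, where 11.2% of all tested genes rose and 4.6% fell. They were Ehd1, an endocytic recycling protein (87, 860, 37, 507, 8 and 99 reads, log2 fold 3.76, SE 0.23, adjusted p = 2.86e-10), Stim2, a calcium sensor of the endoplasmic reticulum (1.28, SE 0.19, 5.57e-05), and the actin-binding Actn1 (0.86, SE 0.21, 0.00619) and Lcp1 (0.72, SE 0.19, 0.0130). In siSmyd5 0 of the 25 passed in either direction by edgeR, where 2.74% of all genes rose and 3.65% fell, with a median of 0.01. An unadjusted p under 0.05 was seen for 6 of the 25, against 1893 of all 7995 genes. Myl6, the shortest of the list at 608 bases, had 34, 19, 37, 24, 4 and 1 reads. In siPhf2, the calpain subunit Capn2 rose (0.88, SE 0.26, 0.0332) and the myosin light chain Myl12a fell (-1.49, SE 0.43, 0.0267), where 8.12% of all genes rose and 4.52% fell. With the length offset Capn2 still passed (1.16, 0.0191) and Myl12a did not (-0.87, 0.27).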

How the data were processed

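Poly(A) RNA was sequenced from 6 libraries, 1 for each of 3 siRNAs and 2 agents, and samples were grouped by title and agent label. The authors deposited a signal per RefSeq transcript, reads scaled to 10000000 tags per the file headers, which also give a tag total and name coding sequence. HOMER and mm9 are named per the submitters' processing notes, while the sources used here name no aligner, filter, strand setting or rule for multiply matching reads.

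Whole reads were recovered from the signal by dividing by its step, within 0.02 of a whole number. This gave 100% whole values in every library, in the siCtl and siPhf2 columns only with the total printed for the other name of the same agent (their own totals gave 2.43% whole at most). Per symbol the transcript with the highest mean was kept. Genes averaging 10 reads or more were fitted in 1 additive model of siRNA and agent, with TMM factors and edgeR 4.0.16's quasi-likelihood test (R 4.3.3), with 2 residual degrees of freedom, and p-values were adjusted over all 7995 genes, with a call at 0.05. Because the libraries are unreplicated, this p measures departure from additivity between arms and agents, not spread between cultures. Single libraries were compared as ratios of TMM-scaled reads with exact conditional Poisson 95% intervals, and shares with exact binomial ones. A single ratio was called at 2-fold (2 reads added) with the interval excluding 1, without a p. No molecular identifiers are described, so intervals cover counting error only. With 183 and 36 reads on the 8 genes in the siPhf2-labelled libraries, values there are the least precise.

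The trend on transcript length was subtracted by lowess (span 0.3, statsmodels 0.14.6) or entered as an offset. Alternatives were DESeq2 1.42.0, limma-voom, limma 3.58.1 on log2 values of the deposited libraries with 1 or 15.2 CPM added, other scalings and filters, exchanged names, and each library left out. The scripts were tested on simulated data. The genes and lists were chosen with earlier results of these data known. Within-library shares, ratios between S100 genes, the length offset and the length class of 300 to 800 bases were added after the data had been seen. Except for S100a8 with S100a9, each ratio set a gene called in its comparison against one not called there. Such ratios, and the shares of called genes, describe the calls and do not test them. All 8 genes were named throughout, with the targeted genes and defining markers. So were the genes that passed in the lists of S100 partners, receptors and other EF-hand proteins (at most 6 in each direction). For each tested gene the 2 non-members of highest r were named. Apart from Cd14, genes of the cell type marker lists that passed by edgeR were not reported above as calls. With KLA these were Vcan (rose) and Tyrobp (fell), and in siSmyd5 Fn1 and Pdgfra (both fell). In siPhf2 Csf3r, Csf1r, Mertk, Fn1 and Vcan rose, and Mmp8, Fcgr1, Col3a1 and Dcn fell. Anxa1, Anxa2, Ager, Myl6 and the non-marker genes that passed only with the offset were named outside that rule, after their values were seen.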

Additional observations from a re-analysis of the deposited data

How the results depend on the processing

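No paired analysis was possible because each combination of siRNA and agent is 1 library and the labels give no replicate numbers. The precision is limited by depth: S100a8, S100a4 and S100a13 rest on at most 80 reads per library, and the siPhf2-labelled libraries hold 183 and 36 reads on all 8 genes. The cause of each change below was not tested unless fewer libraries or genes entered.

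For KLA averaged over the arms, the 1 S100 gene called lower became 0 with DESeq2, limma-voom, limma with either addition, no filter on low counts and the length offset, and 2 with the siPhf2 arm left out. Of all genes 1.41% fell with DESeq2, 2.94% with limma-voom and 0.588% and 0.213% with limma (15.2 and 1 CPM added). Without the filter 2.61% fell, with the offset 4.77% and without the siPhf2 arm 10.3%. Leaving out 1 library gave 0 to 1, where 0.7% to 9.04% of all genes fell. S100a10 was above 0, at 0.08, with the length offset, at 0.00 without the siPhf2 arm and at 0.02 without either siPhf2 library (-0.40 to 0.02 with 1 library left out), and S100a4 was at 0.01 with the offset. For siSmyd5 averaged over the agents, the 4 called higher became 0 with DESeq2 (which gave S100a8 no adjusted p), limma-voom, limma with either addition and the length offset, and 2 with scaling to the total. A mean of at least 50 reads gave 0 too, but S100a4, S100a8 and S100a13 were then not tested, and S100a6 was at 0.96 (adjusted p = 0.0603). Leaving out 1 library gave 0 to 6, with 6 without either siPhf2 library, where 14.7% (vehicle left out) and 14.6% (KLA left out) of all genes rose. S100a10 was at -0.14 and S100a11 at -0.55 with the offset, and S100a11 ran from -0.15 to 0.29 with 1 library left out. Over all genes, the 219 that rose and 292 that fell became 3 and 2 with DESeq2, 9 and 8 with limma-voom, 0 and 0 with limma, 27 and 10 with the offset and 1061 and 1137 without the siPhf2 arm. Scaling to the total gave 59 and 163, and a mean of at least 50 reads gave 41 and 60 of 3612 genes.

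For siPhf2 averaged over the agents, the 1 called higher became 0 with limma with either addition and with scaling to the total. Of all genes 3.44% and 1.45% rose with limma (15.2 and 1 CPM added) and 0.475% with scaling to the total. The 1 called lower became 6 with scaling to the total, 3 with the total without Rn45s and 0 with the length offset, where 91.9%, 17.1% and 2.14% of all genes fell. With 1 library left out, S100a1 ran from 0.65 to 2.13 and S100a11 from -2.06 to -1.65. S100a10 ran from -1.29 (without siPhf2 vehicle) to -0.18 (without siPhf2 KLA). Without a siCtl or siPhf2 library, a compared arm holds a single library, so calls are not counted here. S100a1 was at -0.49 with scaling to the total. S100a4 was at -0.02 with limma-voom, -0.10 and -1.38 with limma, -1.50 with scaling to the total and -7.53 without siPhf2 vehicle, which leaves a library at 0 reads (up to 1.28 with another library left out). With the offset S100a6, S100a8, S100a10 and S100a13 were above 0, at 0.38, 0.56, 0.33 and 0.40, and without siPhf2 KLA S100a8 and S100a13 were at 0.27 and 0.19 (down to -6.68 and -7.96 without siPhf2 vehicle).

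If the names siCtl and siPhf2 trade places, each value of this comparison changes sign by construction: S100a1 -1.65, S100a4 -0.61, S100a6 0.48, S100a8 0.28, S100a10 0.55, S100a11 1.81 and S100a13 0.43. The siSmyd5 comparison then has 4 called higher, of which S100a10 (0.96) and S100a11 (1.91) take the place of S100a4 (0.84) and S100a8 (1.53), and 1 called lower, S100a1 at -0.89. In single libraries the exchange gave 3 lower with KLA in the siCtl arm and 0 in the siPhf2 arm. It gave 2 higher and 1 lower for siSmyd5 with vehicle and 5 higher with KLA, 1 higher and 2 lower for siPhf2 with vehicle, and 3 higher and 0 lower with KLA. S100a1, S100a4 and S100a11 were then at log2 ratios of -2.08, -1.19 and 1.69 with vehicle, and S100a6, S100a10 and S100a11 at 1.22, 1.24 and 1.81 with KLA.

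For single libraries, the length correction gave 0 higher for siSmyd5 under either agent, 1 lower for KLA in the siPhf2 arm, and 1 higher and 0 lower for siPhf2 with KLA, with S100a6 at 0.03 and S100a10 at 0.02. A mean of at least 50 reads, which leaves out S100a4, S100a8 and S100a13, left 1 higher (vehicle) and 0 higher (KLA) for siSmyd5 and 1 higher for siPhf2 with vehicle. A bound of 1.5-fold gave 1 lower for KLA in the siSmyd5 arm and 5 higher for siSmyd5 with KLA. Scaling to the total gave 0 higher and 5 lower for siPhf2 with vehicle, with S100a4 at -0.73, and 7 lower with KLA, and the total without Rn45s gave 1 higher with vehicle. In the averaged siPhf2 fit, scaling to the total called 91.9% of all genes lower. Apart from the length correction for siSmyd5, shares over all genes are not given for single libraries at these settings or with exchanged names. Those counts are therefore not results about the S100 genes. Coding lengths, taken from GENCODE in place of the planned protein table, which was not used here, kept the order of levels in 4 libraries and exchanged a pair of neighbours in siCtl KLA and in siSmyd5 vehicle.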
